A study of Mus musculus with 6 samples.

Results

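The genes described here encode the IL-1 cytokines (Il1a, Il1b), 2 brakes on IL-1 (Il1rn, Il1r2), the cytokines TNF and IL-6 (Tnf, Il6) and 3 chemokines that attract neutrophils (Cxcl1, Cxcl2, Cxcl3). They were chosen by name and function, with earlier results of these data known. All 9 were found among the 23224 genes of the deposited table, and all 9 passed the filter on low counts that left 13223 genes for testing. Dendritic cells (DC) had been sorted from pooled tumors 7 days after MC57-SIY cells were placed subcutaneously in C57BL/6 hosts; MC57 is a fibrosarcoma line of the mouse and SIY a model antigen recognised by CD8+ T cells. There were 3 groups of 2 RNA libraries each: CD103+ DC1 from Rag2-/- hosts, ISG+ DC from Rag2-/- hosts and ISG+ DC from WT hosts. All hosts carried the same tumor line, and the labels name no other treatment. Without Rag2, mice make no mature lymphocytes of the T or B lineage but keep innate cells. The labels do not give the sort gates, and the pooling means that a library is not 1 animal. The labels give 2 independent experiments for each sample type, so p-values measure the spread between such pools.

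IL-1 is an early signal of inflammation. IL-1 alpha and IL-1 beta act through the receptor IL-1R1, whose signal runs through MyD88 and NF-kB. IL-1 beta is made as an inactive precursor that the inflammasome must cleave, so its mRNA level is not the level of active cytokine. The antagonist encoded by Il1rn occupies the receptor without signalling, and IL-1R2, encoded by Il1r2, is a decoy receptor that binds IL-1 without signalling. TNF and IL-6 are made by the same activated myeloid cells. CXCL1, CXCL2 and CXCL3 carry an ELR motif and act on CXCR2, the receptor that guides neutrophils.

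The 3 chemokine genes and Il6 are the members whose promoter window holds a match to the NF-kB consensus, and their sequences are shown because the chemokine genes carry the same match at a similar place. Promoter sequences of all 9 genes were found in RefSeq's table for GRCm38.p6, as 11 windows of 300 bases since Il1rn has several starts. The 200 bases before the annotated start are printed 5′ to 3′, all on the plus strand, with the NF-kB match in capitals: Cxcl1 at chr5:90891045-90891244, Cxcl2 at chr5:90903699-90903898, Cxcl3 at chr5:90785901-90786100 and Il6 at chr5:30012914-30013113.
Cxcl1: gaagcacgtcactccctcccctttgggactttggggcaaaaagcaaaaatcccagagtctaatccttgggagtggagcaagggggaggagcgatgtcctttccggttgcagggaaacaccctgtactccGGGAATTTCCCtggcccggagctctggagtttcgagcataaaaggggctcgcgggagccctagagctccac
Cxcl2: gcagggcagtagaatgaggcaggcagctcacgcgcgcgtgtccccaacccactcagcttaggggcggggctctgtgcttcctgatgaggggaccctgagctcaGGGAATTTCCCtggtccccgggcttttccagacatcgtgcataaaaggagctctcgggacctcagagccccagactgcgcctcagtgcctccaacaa
Cxcl3: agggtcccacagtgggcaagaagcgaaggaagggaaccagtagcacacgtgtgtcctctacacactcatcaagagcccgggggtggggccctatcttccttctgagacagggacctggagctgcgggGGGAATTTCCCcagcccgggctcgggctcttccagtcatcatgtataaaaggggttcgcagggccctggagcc
Il6: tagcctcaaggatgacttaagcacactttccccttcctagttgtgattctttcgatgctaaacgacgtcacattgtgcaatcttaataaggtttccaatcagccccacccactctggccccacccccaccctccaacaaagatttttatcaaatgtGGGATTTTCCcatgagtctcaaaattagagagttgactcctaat
The chemokine promoters each held GGGAATTTCCC, from base -71 to -61 before the start in Cxcl1, from -97 to -87 in Cxcl2 and from -73 to -63 in Cxcl3. In each of them the consensus matched on both strands, and these matches overlapped. Il6 held GGGATTTTCC from -44 to -35. Both strands were searched for the NF-kB consensus, and 4.51% of all 32851 windows in the table held a match. Of the other motifs searched, AP-1 (TGANTCA, both strands) was found in 1 window each of Il1a, Il1rn and Il6, against 7.81% of all windows. The TATA box (TATAAA, gene strand) was found in Il1a, Il1b, Tnf and Cxcl3, against 8.32%. The C/EBP motif (TTGCNNAA, both strands) was found in Il6, against 10.8%. A match is a description of the letters, not of a bound site.

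Libraries held 6023510 to 15368616 estimated counts in total, and levels below are CPM, that is counts scaled to a common depth with TMM factors. CD103+ DC1 replicate 3 had the lowest total and stood apart, with a Spearman correlation over genes of 0.858 to 0.902 with the other libraries. The label CD103+ DC1 was checked against 11 genes that mark this population. They summed to 10179 and 5639 CPM in CD103+ DC1 replicates 2 and 3, and to 1005 to 1369 CPM in the 4 ISG+ DC libraries. The label ISG+ was not checked here. For Rag2 itself, the libraries labelled Rag2-/- had 2 to 40 estimated counts and both libraries labelled WT had 0. These counts do not show a loss of Rag2 in the libraries labelled Rag2-/-, and every direction between hosts rests on the labels. In bulk samples, fewer cells of a type and less RNA per cell cannot be told apart.

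**Figure D1:**
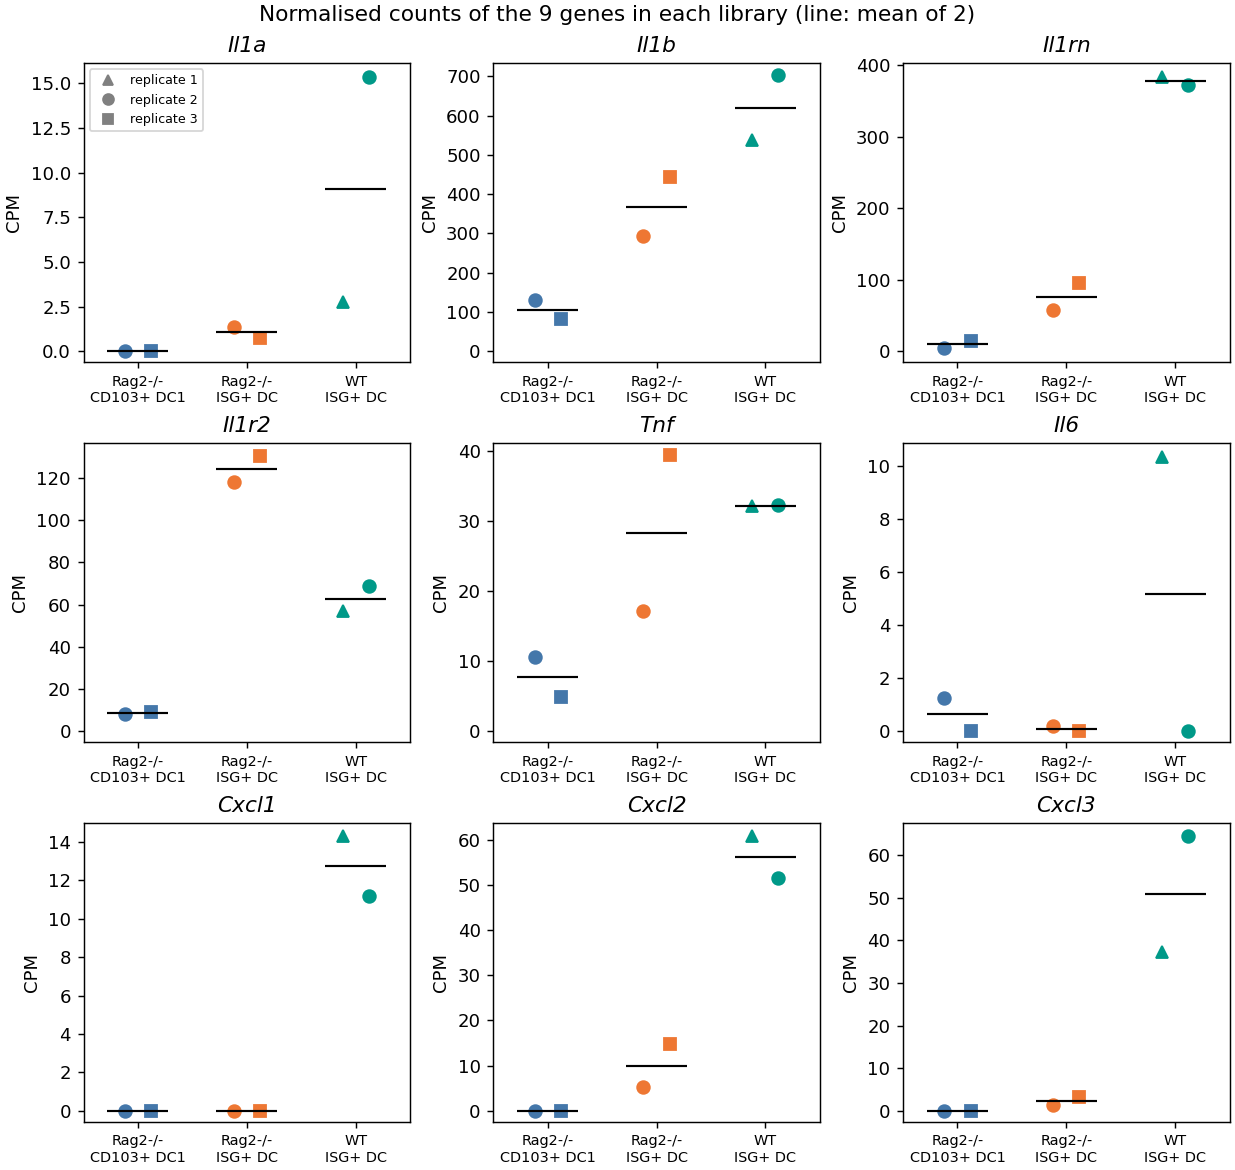
Normalised counts of the 9 genes in each library. The vertical axis is CPM on a linear scale for each gene, each point is 1 library (the shape gives the replicate number), and the line is the mean of 2. The chemokines lie at 0 in CD103+ DC1, and Il1r2 is highest in ISG+ DC from Rag2-/- hosts.

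The first comparison set ISG+ DC against CD103+ DC1 within Rag2-/- hosts. ISG+ DC had higher levels of Il1b, of both IL-1 brakes and of the chemokines Cxcl2 and Cxcl3. In edgeR's quasi-likelihood fit, with p-values adjusted over all genes, 5 of the 9 genes rose, none fell and 4 did not pass. Among those 4 was Cxcl1, which had 0 counts in both groups, so its outcome was fixed. It was in the test set through its counts in WT ISG+ DC. Of all tested genes, 2.83% rose and 0.862% fell. The median log2 fold change over the 9 genes, with Cxcl1 entered as 0, was 2.97, against -0.02 over all genes tested. The groups did not overlap for 7 of the 9 genes, all higher in ISG+ DC, where 23.9% of all tested genes were higher without overlap.

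Il1b, the main secreted IL-1 of myeloid cells, was already present in CD103+ DC1, at 130 and 81.0 CPM in replicates 2 and 3. In ISG+ DC of the same hosts it was at 294 and 443 CPM. The lowest ISG+ DC library was above both CD103+ DC1 libraries, and the rise was 3.48-fold (log2 fold change 1.80 ± 0.32 SE, edgeR adjusted p = 0.011). When ISG+ DC replicate 3 was left out the log2 fold change was 1.47 and the call was lost (edgeR adjusted p = 0.0717). An annotated gene on the opposite strand, Il1bos, overlaps exons of Il1b, and since the strand setting of the counting is not given, reads of the pair cannot be told apart.

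Il1a, which encodes the form of IL-1 that is active without cleavage, had 0 counts in both CD103+ DC1 libraries and 1.38 and 0.729 CPM in ISG+ DC, from 21.95 and 10 estimated counts. Set against the limit of 3 counts over the group (0.144 CPM), the mean in ISG+ DC was at least 7.36-fold higher, and the gene did not pass (edgeR adjusted p = 0.258). Il1a too has an annotated gene on the opposite strand over its exons. Such limits cover counting error and nothing else, since PCR copies were not marked by molecular identifiers.

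The brakes on IL-1 rose more than Il1b by fold, though the difference between their rises was not tested. Il1rn, the receptor antagonist, was at 5.32 and 14.7 CPM in CD103+ DC1 and 57.0 and 95.8 CPM in ISG+ DC, a 7.84-fold rise (log2 fold change 2.97 ± 0.47 SE, edgeR adjusted p = 0.00573). The size depended on the CD103+ DC1 libraries, at a log2 fold change of 2.37 without replicate 2 and 3.86 without replicate 3. For Il1b the same fits gave 2.18 and 1.52, so without replicate 2 the rises of Il1rn and Il1b were close. Il1r2, the decoy receptor, was at 8.05 and 9.25 CPM in CD103+ DC1 and 118 and 131 CPM in ISG+ DC. Its libraries lay close together within each group, and it rose 14.4-fold (log2 fold change 3.85 ± 0.39 SE, edgeR adjusted p = 0.000717).

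Tnf, a cytokine that activates endothelium and phagocytes, was at 10.5 and 4.80 CPM in CD103+ DC1 and 17.1 and 39.4 CPM in ISG+ DC. The groups did not overlap, but the ISG+ DC libraries differed from each other by more than the lower one differed from CD103+ DC1 replicate 2. The log2 fold change of 1.87 ± 0.66 SE did not pass (edgeR adjusted p = 0.194). Without CD103+ DC1 replicate 2 it was 2.55 and passed (edgeR adjusted p = 0.0271). Il6, an inducer of the acute-phase response, had 19 and 0 estimated counts in the CD103+ DC1 libraries, against 3 and 0 in ISG+ DC, so its groups overlapped at the limit of counting (edgeR adjusted p = 0.779).

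The chemokines had 0 counts in both CD103+ DC1 libraries. Cxcl1 had 0 counts in ISG+ DC of these hosts as well, so nothing could be compared. Cxcl2 was at 5.16 and 14.8 CPM in ISG+ DC, on average at least 69.5-fold above the 3-count limit of CD103+ DC1 (edgeR adjusted p = 0.00331). Cxcl3 was at 1.32 and 3.21 CPM, on average at least 15.8-fold above it (edgeR adjusted p = 0.019). These bounds set the mean of 2 libraries against the limit; for the lower library they were 35.9-fold and 9.20-fold. With only the 4 libraries of the comparison in the fit, both kept their direction and lost their calls (edgeR adjusted p = 0.0896 for Cxcl2 and 0.371 for Cxcl3).

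**Figure D2:**
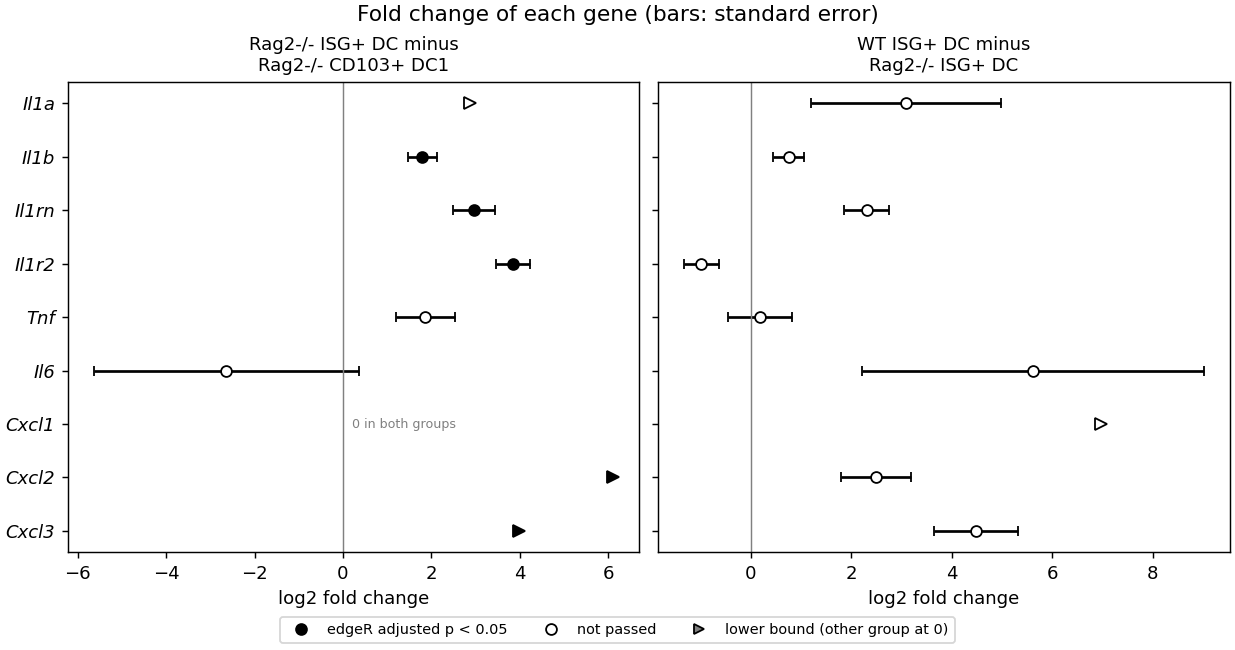
Fold changes of the 9 genes in both comparisons. The horizontal axis is the log2 fold change, circles carry bars of 1 standard error, triangles are lower bounds against a group at 0, and filled symbols passed the test. In the comparison of populations 5 genes are filled, and in the comparison of hosts none is.

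The second comparison set ISG+ DC from hosts labelled WT against ISG+ DC from hosts labelled Rag2-/-. In the same edgeR fit none of the 9 genes passed, where 0.552% of all tested genes did. Before adjustment 6 of them had a p under 0.05, 5 higher and 1 lower in WT hosts, where 9.88% of all tested genes were under that p in either direction. DESeq2 called 4 of the 9, all higher in WT hosts (Il1rn, Cxcl1, Cxcl2 and Cxcl3), where it called 2.06% of all genes higher. The groups did not overlap for 6 genes that were higher and 1 that was lower in WT hosts, where 21.4% and 23.1% of all tested genes did so. The median log2 fold change was 2.49, against -0.03 over all genes tested.

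Il1rn was at 384 and 372 CPM in WT hosts (replicates 1 and 2) against 57.0 and 95.8 CPM in Rag2-/- hosts. The WT libraries lay within a narrow band far above the others, with a log2 fold change of 2.31 ± 0.45 SE, but the adjusted p was just over the threshold (edgeR adjusted p = 0.0516). It passed in 8 of 11 alternatives, among them each fit without 1 CD103+ DC1 library, and its adjusted p ran from 8.80e-09 to 0.247. Il1r2 went the other way, at 56.7 and 68.9 CPM in WT hosts against 118 and 131 CPM in Rag2-/- hosts. Both WT libraries were below both Rag2-/- libraries, and the log2 fold change of -0.99 ± 0.35 SE did not pass (edgeR adjusted p = 0.327, and 0.0528 to 1 over the alternatives).

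Il1b was at 538 and 703 CPM in WT hosts against 294 and 443 CPM in Rag2-/- hosts. The groups did not overlap, and the log2 fold change of 0.75 ± 0.31 SE did not pass (edgeR adjusted p = 0.439). It passed with CD103+ DC1 replicate 2 left out (0.75, edgeR adjusted p = 0.0392) and with replicate 3 left out (0.75, edgeR adjusted p = 0.0185), 2 libraries that are in neither group and enter the fit through the shared spread. Il1a was at 2.77 and 15.4 CPM in WT hosts, so most of its mean came from WT replicate 2 (edgeR adjusted p = 0.681).

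Cxcl1 was detected in WT hosts alone, at 14.3 and 11.2 CPM (160 and 112 estimated counts), with 0 counts in the other 4 libraries. Its mean in WT hosts was at least 126-fold above the 3-count limit of Rag2-/- ISG+ DC (0.101 CPM), and it did not pass (edgeR adjusted p = 0.13). Cxcl2 was at 60.8 and 51.5 CPM against 5.16 and 14.8 CPM, a log2 fold change of 2.49 ± 0.70 SE (edgeR adjusted p = 0.193). Cxcl3 was at 37.3 and 64.5 CPM against 1.32 and 3.21 CPM, a log2 fold change of 4.49 ± 0.83 SE (edgeR adjusted p = 0.0516). All 3 chemokine genes were above every Rag2-/- library in both WT libraries. Cxcl1 and Cxcl2 passed in 5 of 11 alternatives each and Cxcl3 in 6. Without CD103+ DC1 replicate 2 the adjusted p was 0.00917 for Cxcl1, 0.0104 for Cxcl2 and 0.000344 for Cxcl3, and without replicate 3 it was 0.0052, 0.00483 and 6.15e-05. Cxcl3 passed also without WT replicate 1 (edgeR adjusted p = 0.0256). Its adjusted p reached 0.318 over the alternatives, that of Cxcl1 0.394 and that of Cxcl2 0.646.

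Tnf was at 32.1 and 32.2 CPM in WT and 17.1 and 39.4 CPM in Rag2-/- hosts, with the WT libraries between them. The groups overlapped, and the log2 fold change of 0.19 ± 0.63 SE did not pass (edgeR adjusted p = 0.983); an interval of that width does not show equal levels. Il6 had 116 estimated counts (10.4 CPM) in WT replicate 1 and 0 in WT replicate 2. That 1 library held most Il6 counts of the study. Acta2, a gene of contractile fibroblasts on the fibroblast list, was at 156 CPM in the same library and at 0.2 to 3.66 CPM in the other 5. The 12 fibroblast and matrix genes summed to 638 CPM there against 59.2 CPM in WT replicate 2, while the Rag2-/- libraries ranged from 489 to 1174 CPM. Their part in the Il6 value was not tested.

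Cxcl2 and Cxcl3 share a stretch of 157 identical bases in the GENCODE M21 transcripts, against 23 bases between Cxcl1 and either of them. In WT replicate 2 their estimated counts were 516.01 and 645.99, which add to 1162, and in the other 3 libraries with counts both genes had whole numbers. Reads that match both genes could be counted for either, so their split is reported as uncertain and their sum was tested as well. Summed into 1 row, the pair was at 0 in CD103+ DC1, at 6.48 and 18.0 CPM in ISG+ DC of Rag2-/- hosts and at 98.0 and 116 CPM in those of WT hosts. In that fit, chosen after seeing the data, the sum was higher in ISG+ DC than in CD103+ DC1 (at least 85.2-fold for the mean, edgeR adjusted p = 0.00168). Between hosts it differed by a log2 fold change of 3.13 ± 0.59 SE (edgeR adjusted p = 0.0516).

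Ratios within a library do not depend on how libraries are scaled. The ratio of Il1rn to Il1b counts was 0.0406 and 0.182 in CD103+ DC1, 0.194 and 0.216 in ISG+ DC of Rag2-/- hosts and 0.712 and 0.529 in WT ISG+ DC. Both WT libraries were above the other 4. The ratio of Il1rn to Il1r2 counts, the antagonist against the decoy receptor, was 0.657 and 1.59 in CD103+ DC1, 0.483 and 0.733 in ISG+ DC of Rag2-/- hosts and 6.76 and 5.40 in WT ISG+ DC. Here too both WT libraries were above the other 4. These ratios are given as values and were not tested.

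**Figure D3:**
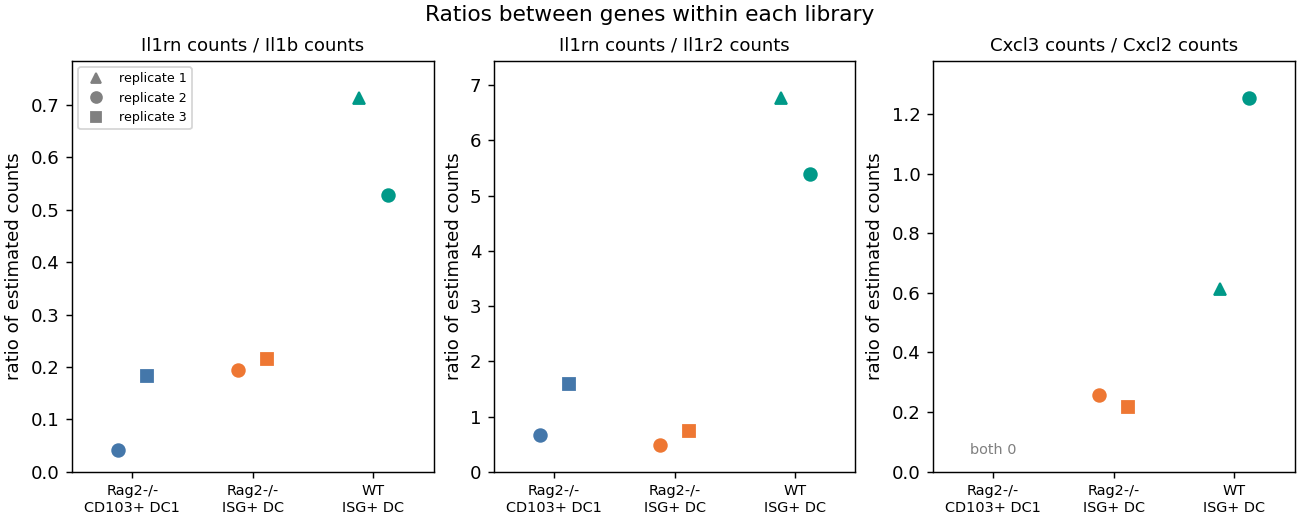
Ratios of estimated counts between 2 genes within each library. The vertical axis is the ratio on a linear scale, and each point is 1 library. Il1rn to Il1b reaches 0.712 in WT hosts, Il1rn to Il1r2 reaches 6.76, and Cxcl3 to Cxcl2 has no value in CD103+ DC1, where both are at 0.

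Levels of different genes were compared only per kilobase of annotated exon (GENCODE M21), as an approximation because the authors' annotation is not given. On that scale Il1b had the highest mean of the 9 in each group, at 55.4 CPM per kilobase in CD103+ DC1, 193 in ISG+ DC of Rag2-/- hosts and 325 in WT ISG+ DC. Il1r2 was next in Rag2-/- ISG+ DC, at 65.2 CPM per kilobase, whereas Il1rn was next in WT ISG+ DC, at 68.2. In CD103+ DC1, Tnf (4.67 CPM per kilobase) and Il1r2 (4.53) did not differ beyond their spread. In WT ISG+ DC, Cxcl2 was at 27.1, Tnf at 19.6, Cxcl3 at 14.5 and Cxcl1 at 6.79 CPM per kilobase; the Cxcl3 libraries (10.7 and 18.4) overlapped neither Tnf (19.6 and 19.7) nor Cxcl1 (5.96 and 7.63).

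Around these genes lie the pathways that carry, induce or limit them. The counts for each list are to be read against the share of all tested genes, which itself moved with the libraries in the fit. Of all genes, 0.862% fell between populations, against 0.687% with only the 4 libraries compared. Between hosts 0.265% fell, against 2.2% by DESeq2, 1.75% with no filter and 1.37% with only the 4 libraries compared. In both comparisons a larger share than in the fit of all 6 libraries fell when either CD103+ DC1 library was left out. Counts of falling genes in those fits therefore cannot be read against the share that fell in the fit of all 6 libraries. Between populations 2.83% of all genes rose, against 9.1% without CD103+ DC1 replicate 2, 4.16% without its replicate 3, 2.02% and 1.57% without ISG+ DC replicate 2 or 3, and 1.66% with only the 4 libraries compared. Between hosts 0.287% rose, against 2.58% and 2.9% without CD103+ DC1 replicate 2 or 3 and 2.23% with only the 4 libraries compared.

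Of 27 other IL-1 family and signalling genes tested, 3 rose in ISG+ DC over CD103+ DC1 within Rag2-/- hosts and none fell. Irak3, an inhibitor of IL-1 receptor and Toll-like receptor signalling, was at 1.73 and 1.88 CPM in CD103+ DC1 and 29.5 and 34.5 CPM in ISG+ DC (17.7-fold, edgeR adjusted p = 0.00172). Il18rap, a subunit of the IL-18 receptor, rose by 4.72 and Nlrp3, the inflammasome sensor, by 1.71 on the log2 scale. Il18rap was at 8.03 without CD103+ DC1 replicate 2. Nlrp3 lost its call without either ISG+ DC library of these hosts, and 9 genes of the list rose without CD103+ DC1 replicate 2 (9.1% of all genes did) and 5 without replicate 3 (4.16% of all genes). Between hosts none of the 27 passed by edgeR in the fit of all 6 libraries or with any 1 library left out, 1 had an unadjusted p under 0.05, and DESeq2 called 0.

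Of 19 genes of TNF processing and signalling, 2 rose between populations. They were Rhbdf2, which brings the TNF-cleaving protease ADAM17 to the cell surface (4.59-fold, edgeR adjusted p = 0.00663), and Tnip1, a partner of the NF-kB inhibitor A20 (2.45-fold, edgeR adjusted p = 0.038). Tnip1 lost its call without either ISG+ DC library of these hosts and without WT replicate 1. In all, 10 of the list rose without CD103+ DC1 replicate 2, 4 when either CD103+ DC1 replicate 3 or WT replicate 2 was left out, and 1 without either ISG+ DC library of Rag2-/- hosts or with only the 4 libraries compared. Between hosts Tnfaip2, a TNF-inducible gene, was the 1 that rose, at 211 and 326 CPM in WT against 21.8 and 14.8 CPM in Rag2-/- hosts (14.7-fold, edgeR adjusted p = 0.0134), and it passed in all 11 alternatives. Without either CD103+ DC1 library 5 of the list rose, and 4 with only the 4 libraries compared.

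Of 19 genes of the IL-6 family and its signalling, 3 rose between populations: Cebpb, a transcription factor of inflammatory genes (4.17-fold), Socs3, a feedback inhibitor (2.89-fold), and the cytokine Osm (26.4-fold). Osm was at 1.53 and 0 CPM in CD103+ DC1, so its fold rests on few counts. Socs3 lost its call without ISG+ DC replicate 2, and 8 of the list rose without CD103+ DC1 replicate 2. With only the 4 libraries compared none of the 19 passed between populations, so all 3 calls were lost. Between hosts Cebpb rose again, at 552 and 549 CPM in WT against 85.8 and 121 CPM in Rag2-/- hosts (5.33-fold, edgeR adjusted p = 0.0194). That call was lost when ISG+ DC replicate 2 of Rag2-/- hosts was left out (edgeR adjusted p = 0.106), and 2 of the list rose without either CD103+ DC1 library.

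Among the other genes of neutrophil attraction and growth, some ligands had no counts while some receptor subunits were among the well detected genes. The chemokines Cxcl5 and Cxcl15, the receptor gene Cxcr1 and the growth factors Csf3 and Csf2 had 0 counts in all 6 libraries. Ppbp, on the same list, had 69 and 12 estimated counts in WT ISG+ DC and 0 elsewhere. Cxcr2 was detected in every library, at 4.39 and 29.6 CPM in CD103+ DC1. It was at 16.1 and 21.5 CPM in ISG+ DC of Rag2-/- hosts and 8.58 and 13.0 CPM in WT ISG+ DC. Csf2rb, the signalling subunit of the GM-CSF receptor, ranged from 222 CPM in CD103+ DC1 to 990 CPM in WT ISG+ DC, and Csf2ra, its ligand-binding subunit, from 147 to 263 CPM. Of the 13 tested, 2 rose between populations: Ltb4r1, a leukotriene B4 receptor, and Il17ra, an IL-17 receptor subunit (3.85-fold). Ltb4r1 was at 1.60 and 0 CPM in CD103+ DC1 against 34.2 and 33.3 CPM in ISG+ DC. Without CD103+ DC1 replicate 2, 4 rose, and without either ISG+ DC library of Rag2-/- hosts 1 did, as Il17ra lost its call. With only the 4 libraries compared, 11 of the list were tested and none passed. Between hosts Csf3r, the G-CSF receptor, was the 1 that rose, at 126 and 134 CPM in WT against 22.5 and 12.3 CPM (7.46-fold, edgeR adjusted p = 0.035). It lost its call without either ISG+ DC library of Rag2-/- hosts, and 2 of the list rose without either CD103+ DC1 library.

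Of 15 NF-kB factors and feedback genes, 3 rose between populations and none fell. They were Nfkbiz, a coactivator of secondary response genes (5.91-fold, edgeR adjusted p = 0.00153), Ikbke, a kinase of the pathway, and Nfkbia, the inhibitor IkB alpha (2.25-fold, edgeR adjusted p = 0.0486). Ikbke was at 36.0 and 60.3 CPM in ISG+ DC against 2.06 and 0 CPM in CD103+ DC1, the latter from 31 and 0 estimated counts. Nfkbia passed in 4 of 12 alternatives, and with CD103+ DC1 replicate 2 left out 9 of the list rose and 1 fell. Between hosts none of the 15 passed by edgeR, 2 had an unadjusted p under 0.05, and DESeq2 called 0; with CD103+ DC1 replicate 2 left out 1 rose, and with replicate 3 left out 1 rose and 1 fell. Of 18 genes that control cytokine mRNA stability and MAP kinases, Dusp1, a MAP kinase phosphatase (2.73-fold), and the mRNA-decay factors Zfp36 (2.83-fold) and Zfp36l2 (2.04-fold) rose, and Zc3h12c fell by 1.79 on the log2 scale. None of these 4 passed without Rag2-/- ISG+ DC replicate 3; 2 rose and none fell without replicate 2, and with CD103+ DC1 replicate 2 left out 6 rose and 2 fell. With only the 4 libraries compared none of the 18 passed between populations. Between hosts none of the 18 passed by edgeR, 3 had an unadjusted p under 0.05, DESeq2 called 1, and 1 rose without either CD103+ DC1 library.

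**Figure D4:**
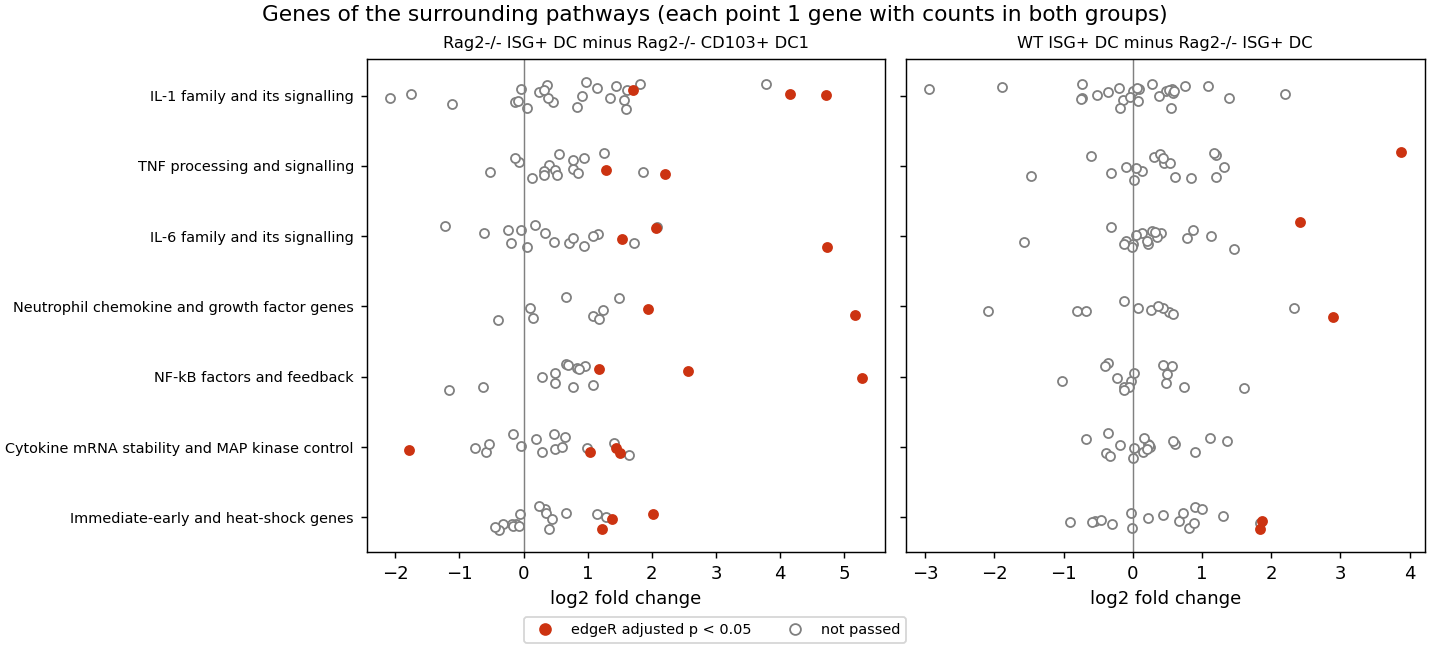
Fold changes of genes in the surrounding pathways. The horizontal axis is the log2 fold change, each point is 1 tested gene with counts in both groups (vertical scatter has no meaning), and filled points passed the test. Between hosts the filled points are Tnfaip2, Cebpb, Csf3r, Fos and Fosb.

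Genes that respond quickly to tissue dissociation were given beside the members, since cytokine and chemokine transcripts respond to handling too. Of 19 immediate-early and heat-shock genes, 3 rose between populations (Jun 4.06-fold, Hspa1b 2.60-fold, Hspa1a 2.33-fold) and 2 between hosts. Fos was at 1372 and 1510 CPM in WT against 340 and 454 CPM in Rag2-/- ISG+ DC, and Fosb rose 3.58-fold; both lost their call without ISG+ DC replicate 2 of Rag2-/- hosts. Between populations 1 rose without that library, and Hspa1a lost its call without either; 1 rose with only the 4 libraries compared. Between hosts, with CD103+ DC1 replicate 2 left out 7 rose and 1 fell, and with replicate 3 left out 9 rose and 2 fell, and with only the 4 libraries compared 5 rose and 1 fell. The summed level of the 19 genes ran from 8524 to 8628 CPM in CD103+ DC1, 8786 to 9304 CPM in ISG+ DC of Rag2-/- hosts and 10251 to 11157 CPM in WT ISG+ DC. Hspa8 and Hsp90aa1 made up a large part of each sum and did not rise with it. Hspa8 was at 4506 and 4210 CPM in CD103+ DC1, 3345 and 3632 CPM in Rag2-/- and 3244 and 3601 CPM in WT ISG+ DC. Hsp90aa1 was, in that order, at 888 and 1614, 922 and 907, and 570 and 767 CPM. The sum therefore says little about the other genes of the list. The part of the 19 genes in the chemokine and cytokine values was not tested.

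Most markers of macrophages and monocytes rose between populations. Between hosts 1 of them rose, with a median log2 fold change of 1.51 over the list. Those of CD11b+ DC rose mainly between populations, with a median log2 fold change of -0.08 between hosts. Few genes of conventional DC moved, and not all in the direction of the members. All 16 macrophage and monocyte markers were tested, and 12 rose between populations and 1 between hosts. Between hosts 12 rose without either CD103+ DC1 library, 3 without WT replicate 1, 2 without Rag2-/- ISG+ DC replicate 3 and none without replicate 2; 10 rose with only the 4 libraries compared and 9 by DESeq2. Their summed level was 785 and 917 CPM in CD103+ DC1, 3176 and 4958 CPM in ISG+ DC of Rag2-/- hosts and 10210 and 10255 CPM in WT ISG+ DC, with 1 gene at 0 in CD103+ DC1 replicate 3. Of 10 markers of CD11b+ DC, 8 rose between populations (median log2 fold change 4.67). Between hosts none passed by edgeR, 1 had an unadjusted p under 0.05, DESeq2 called 1, and 2 rose without either CD103+ DC1 library or with only the 4 libraries compared. They summed to 218 and 210 CPM in CD103+ DC1, 2750 and 3267 CPM in ISG+ DC of Rag2-/- hosts and 3512 and 3671 CPM in WT ISG+ DC; 3 of them were at 0 in CD103+ DC1 replicate 3 and 1 each in its replicate 2 and WT replicate 1. Of 9 genes shared by conventional DC, 1 rose and 1 fell between populations, and 1 fell between hosts; with CD103+ DC1 replicate 2 left out of the comparison of populations 4 rose and 3 fell, and with ISG+ DC replicate 3 left out none fell. The gene that fell in both was Flt3, the receptor for the DC growth factor FLT3L, at 490 and 330 CPM in CD103+ DC1, 145 and 91.3 CPM in ISG+ DC of Rag2-/- hosts and 15.8 and 32.4 CPM in WT ISG+ DC (edgeR adjusted p = 0.0411 between hosts). Zbtb46, a transcription factor of conventional DC, was at 157 and 111 CPM against 32.2 and 52.3 CPM in WT ISG+ DC and did not pass (edgeR adjusted p = 0.0534). Between hosts 4 of the 9 fell without either CD103+ DC1 library, 3 by DESeq2, with no filter or with only the 4 libraries compared, 2 without WT replicate 2 and none without Rag2-/- ISG+ DC replicate 2 or WT replicate 1. Their sum, made up mainly of MHC class II and invariant chain genes, was 15862 and 14732 CPM in CD103+ DC1 and 19661 to 20942 CPM in the 4 ISG+ DC libraries, with no gene at 0. Endothelial markers summed to 59.6 to 66.7 CPM in CD103+ DC1, 176 to 196 CPM in Rag2-/- and 158 to 229 CPM in WT ISG+ DC. Those of mast cells and basophils were, in that order, at 113 to 153, 45.9 to 76.2 and 41.1 to 57.5 CPM. Markers of T and NK cells summed to at most 29.0 CPM and those of B cells to at most 12.7 CPM. No gene of these lists passed by edgeR in the fit of all 6 libraries. Between populations DESeq2 called 2 endothelial genes higher and 1 mast cell gene lower. The part of such cells in the members' levels was not tested.

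Neutrophils are themselves a source of Il1b, Il1rn, Il1r2 and Cxcl2. Of 16 neutrophil markers found, 6 were at 0 in all 6 libraries, among them S100a8, Ngp, Camp and Elane, and S100a9 was at 4.11 CPM in WT replicate 1 and 0 elsewhere. Some others had counts mainly in ISG+ DC, but not all. Ltf and Lcn2 had counts in CD103+ DC1 replicate 2 alone, at 2.06 and 0.332 CPM. Mmp9 was at 4.32 and 0.856 CPM in CD103+ DC1 and 10.8 and 0.438 CPM in ISG+ DC of Rag2-/- hosts. Hdc overlapped between these groups as well. Mmp8, a collagenase of neutrophil granules, was at 0.126 and 0 CPM in ISG+ DC of Rag2-/- hosts and 5.72 and 18.3 CPM in WT ISG+ DC (edgeR adjusted p = 0.252). Chi3l3, which macrophages express too, was at 0.315 and 8.24 CPM against 35.9 and 8.08 CPM (edgeR adjusted p = 0.691), and both genes had 0 counts in CD103+ DC1. Of the 5 tested, Trem1 rose between populations (edgeR adjusted p = 0.0158), and none of the list passed there with only the 4 libraries compared. Between hosts none passed by edgeR, 1 had an unadjusted p under 0.05, DESeq2 called 1, and 1 rose without either CD103+ DC1 library. The 16 summed to 6.51 to 6.92 CPM in CD103+ DC1, 42.9 to 57.5 CPM in ISG+ DC of Rag2-/- hosts and 90.0 to 102 CPM in WT ISG+ DC. Trem1, which monocytes also express, made up 26.3 and 48.2 CPM of the sums in ISG+ DC of Rag2-/- hosts and 52.2 and 58.0 CPM of those in WT ISG+ DC. The part of neutrophils in the members' levels was not tested.

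**Figure D5:**
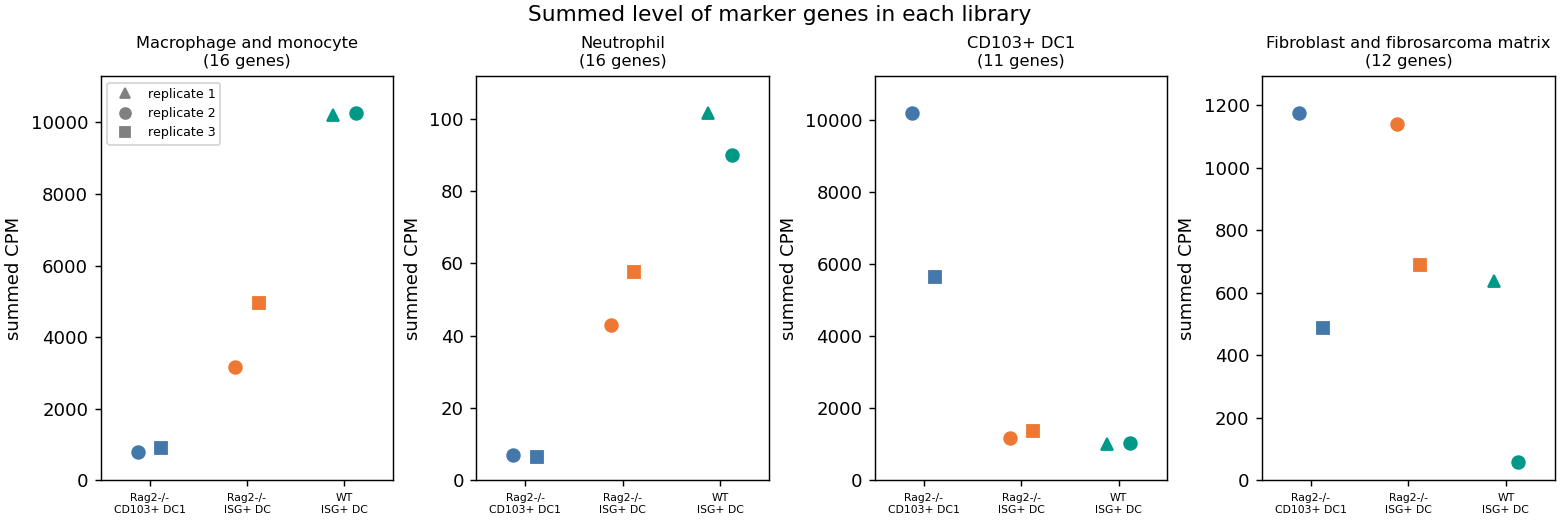
Summed level of 4 marker lists in each library. The vertical axis is the summed CPM of the genes found, on a linear scale from 0, and each point is 1 library. Macrophage and monocyte markers are lowest in CD103+ DC1 and highest in WT ISG+ DC, where they reach 10255 CPM, while neutrophil markers stay at or under 102 CPM.

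The genes whose levels followed the members most closely over the 6 libraries were sought among the 8562 genes averaging 10 CPM or more, by Pearson's r of log2(CPM + 1). The 6 libraries fall into 3 groups, so a high r is easily reached and is given as a description. Il1b was most like Por (0.999) and Nfkbie (0.998), an NF-kB inhibitor. Il1rn was most like Clec7a (0.998), the beta-glucan receptor Dectin-1, and Nrp2 (0.997). Il1r2 followed Cd72 (0.995) and Gcnt1 (0.995), which share its peak in Rag2-/- ISG+ DC: Cd72 was at 13.0 and 13.4 CPM in CD103+ DC1, 351 and 292 CPM in ISG+ DC of Rag2-/- hosts and 142 and 133 CPM in WT ISG+ DC. Cxcl2 was most like Lyz2 (0.997), which encodes lysozyme, with Clec4e (0.995), the receptor Mincle, among its first 3. Cxcl1 was most like Arid5b (0.992) and included Fosb (0.990) among its first 3. Il6 followed 1 library, with Acta2 (0.964) among its first 3.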

How the data were processed

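RNA of sorted DC was sequenced as 6 libraries, per the labels' protocols with a low-input kit that keeps strand. The deposited table holds estimated counts per gene symbol, not normalized. Per the submitters' processing notes the authors used Bowtie 1.2.3 and RSEM 1.3.1 with build mm9; the annotation and the strand setting of the counting are unknown here. RSEM divides reads that fit several genes. Column names gave the library of each of the 6 columns.

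After rounding, the counts were fitted with edgeR 4.0.16 (R 4.3.3): filterByExpr, TMM factors and 1 quasi-likelihood fit over all 6 libraries, which pools the spread of the 3 groups (3 residual degrees of freedom, 7.34 from the prior). All p-values are two-sided and adjusted over all genes by Benjamini-Hochberg; a gene passed at under 0.05. The procedure was tested on simulated data. Alternatives were RLE factors, library totals, no filter, DESeq2 1.42.0, the 4 libraries compared, each library left out and a replicate block. Values given as a pair are replicates 2 and 3 in Rag2-/- groups and 1 and 2 in WT, in that order, unless a range is stated.

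The 9 genes, 7 pathway and context lists and 10 marker lists were chosen with earlier results of these data known. Named pathway genes are those among the 3 with the smallest p in each list, and others that passed. Genes most like each member were the 3 with the highest r. Acta2, Csf2rb, Csf2ra, Ppbp, Cxcr2, Hspa8, Hsp90aa1, marker genes and genes at 0 were named after their values were seen. Sequences are RefSeq's for GRCm38.p6, another build than the authors'.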

Additional observations from a re-analysis of the deposited data

How the results depend on the processing

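Of the 9 genes, 5 passed between populations, and 4 to 6 with 1 library left out; with only the 4 libraries compared 3 did. Between hosts none passed, against 4 with no filter on low counts, 4 by DESeq2, 4 with only the 4 libraries compared and 0 to 5 with 1 library left out. Over all genes the count between populations, 488, was 1087 with no filter, 1078 by DESeq2, 297 with only the 4 libraries compared and 278 to 2068 with 1 library left out. Between hosts the count, 73, was 555 with no filter, 541 by DESeq2, 444 with only the 4 libraries compared and 27 to 801 with 1 library left out. The cause of these shifts was not tested. With only the 4 libraries compared, the filter left 7 of the 9 genes to test between populations and 8 between hosts. Where a library is left out, the lone library of its group is assumed to vary like the others.

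The populations share replicate numbers 2 and 3, which the labels do not tie to a day or animal. Over 8562 genes the differences between replicates 2 and 3 of the populations correlated at -0.06, so the numbers are not taken as pairs. With the replicate block 715 genes and 5 of the 9 passed between populations. No paired analysis was possible between hosts because they share 1 number. Outside WT replicate 2 Il1a had 0 to 31.36 estimated counts, and outside WT replicate 1 Il6 had 0 to 19, so that differences among those libraries were near the limit of counting.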
